A study of Danio rerio with 6 samples.

Results

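The nduf genes are the nuclear genes of respiratory complex I, the NADH:ubiquinone oxidoreductase of the inner mitochondrial membrane. Every row whose symbol begins with nduf in lower case was taken, which gave 46 of the 29095 genes listed. Of these, 40 are subunit genes and 6 are assembly factor genes, whose symbols begin with ndufaf. RNA had been sequenced from acute lymphoblastic leukaemia, a malignancy of early lymphocytes, in zebrafish of the strain CG2. Tumours 1404, 1279 and 1314 were each sorted by flow cytometry into a side population (SP), a gate named for cells that extrude a DNA-binding dye, and a non-side population (nonSP), the cells that retain it. Each of the 6 libraries is 1 fraction of 1 tumour (n = 3 pairs). The labels state no treatment, and the age of the fish and the way each tumour arose were not used here. The comparison asks whether the level of these genes differed between the SP and nonSP fractions of a tumour.

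Complex I takes electrons from NADH, passes them through a hydrophilic arm to ubiquinone, and couples this to proton pumping in its membrane arm. The N module at the tip of the hydrophilic arm binds NADH, the Q module below it reduces ubiquinone, and the ND1, ND2, ND4 and ND5 modules form the membrane arm, each named for a subunit encoded in mitochondrial DNA. The catalytic core is conserved from bacteria, while accessory subunits, among them all ndufb proteins, surround it. Assembly factors build the enzyme and are not part of the finished complex. Module names follow the human enzyme, and roles of single genes are those of their human or mouse counterparts. Sequences of these genes were not used here.

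Of the 46 genes, 42 had enough counts to be tested. Library totals ranged from 30213658 to 62398607 counts. Values are CPM (the count of a gene relative to its library's total) after scaling by trimmed mean of M-values (TMM), which sets the libraries to a common level over most genes. They are given in the order 1404, 1279 and 1314, and the direction of a single gene is that with TMM unless library totals are named. The leukaemia label was checked with 15 lymphoid markers, of which 12 were listed and tested. Their summed level ranged from 158 to 832 CPM in SP and from 329 to 1137 CPM in nonSP, none was at 0 throughout, and 2 fell in SP, rag2 and ptprc (edgeR adjusted p = 0.00841 and 0.0302). Among all tested genes 9.40% fell with TMM. With library totals 0 of the 12 were lower and 3 higher, where 50.8% of all tested genes were higher. Lineage markers differed between tumours. lck stood at 237 CPM in SP of tumour 1279 and at 4.24 and 13.3 CPM in SP of the other two, while pax5 stood at 0.0308 CPM there and at 23.8 and 16.8 CPM in those. Some markers of other cells moved with the fraction. Of 6 fibroblast markers listed, 3 were tested and 2 rose, lum and dcn. The summed level of all 6 was 8.74 to 27.1 CPM in SP and 4.40 to 5.31 CPM in nonSP. The other tested one, col1a1b, had a log2 fold change of 0.18 (edgeR adjusted p = 0.850). The untested col1a2, col1a1a and pdgfra stood at 0.415 CPM or less in every library. Of 16 muscle markers listed, 7 were tested and 2 rose, ttna and neb. The summed level of all 16 was 38.4 to 77.6 CPM in SP and 7.05 to 31.5 CPM in nonSP. Of the 7 tested, 4 had a log2 fold change below 0, the median was -0.13, and pvalb1 was at 0 in every library. Of 5 erythroid markers listed, 3 were tested and 2 rose, slc4a1a and epor. The summed level of all 5 was 5.84 to 22.0 CPM in SP and 2.07 to 11.3 CPM in nonSP. epor stood at 0.267 CPM or less in every library. The untested hbaa1 was at 0, 0.0462 and 0 CPM in SP versus 0.493, 0.508 and 0 CPM in nonSP. Of 12 myeloid markers listed, 6 were tested and 1 rose, mpx. It stood at 37.3, 3.55 and 3.12 CPM in SP versus 2.77, 0.846 and 0.176 CPM in nonSP. The summed level of all 12 was 18.5 to 465 CPM in SP and 15.3 to 210.4 CPM in nonSP. Of the 6 tested, 5 had a log2 fold change above 0 and 1 below, spi1b at -0.51. Of 5 markers each of thrombocytes, endothelium and epithelium, 3, 1 and 1 were tested and 0 were called by edgeR, with 1 thrombocyte marker higher at an unadjusted p below 0.05. The summed levels were 0.991 to 2.31, 0.415 to 22.8 and 0.163 to 0.292 CPM in SP, beside 0.860 to 2.14, 0.211 to 9.59 and 0.265 to 0.846 CPM in nonSP, and the thrombocyte genes itga2b and mpl were at 0 in every library. The part of these cells in the results on nduf genes was not tested, and in bulk RNA fewer cells of a type and less RNA per cell cannot be told apart.

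In all, 6 of the 42 tested nduf genes fell in SP and 0 rose at an adjusted p below 0.05 with TMM. The test was the edgeR quasi-likelihood test blocked on tumour, with Benjamini-Hochberg adjustment over all tested genes. With library totals in place of TMM 0 were lower and 7 higher, where 1.76% of all tested genes were lower and 50.8% higher. The 6 called with TMM make 14.3% of the tested nduf genes, against 9.40% of all 15770 tested genes called lower and 13.0% called higher. They were ndufb2 and ndufb10 of the membrane arm, ndufa4 and ndufa4l, whose mammalian counterpart is now counted with complex IV, and the assembly factor genes ndufaf5 and ndufaf7. Without the ndufa4 family, 2 of 34 tested subunit genes were called, or 5.88%, below the share among all genes. At an unadjusted p below 0.05, 16 nduf genes were lower and 0 higher, where 15.3% of all genes were lower and 3293 of 15770 were higher. DESeq2 called 13 lower and 0 higher (12.6% of all genes lower, 12.7% higher), and limma voom 10 lower and 0 higher (11.3% lower, 13.6% higher). Of the 42 genes, 39 had a log2 fold change below 0 with TMM, where 7328 of all 15770 tested genes had. In all 3 tumours, 23 genes were below 0, which is 54.8% against 24.0% of all tested genes. None of the 42 was above 0 in all 3, where 4899 of the 15770 were, and 19 differed in direction between tumours. The median log2 fold change was -0.55 over nduf genes and 0.09 over all tested genes.

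The tumours differed in how far the genes stood from 0. The median log2 ratio of SP to nonSP over the 42 genes was -0.44 in tumour 1404, -0.12 in 1279 and -1.11 in 1314. With TMM the number of genes below 0 was 36, 25 and 42, all of those tested in tumour 1314, while with library totals the median ratios were 0.37, 1.17 and -0.012. The medians over all tested genes were 0.00043, 0.26 and -0.0017 with TMM, and 0.79, 1.49 and 1.05 with library totals. They too were highest in tumour 1279, and lay above the nduf medians in each tumour under both scalings. Across the 42 genes the ratios of 2 tumours correlated at Pearson's r of 0.37 (1404 and 1279), 0.58 (1404 and 1314) and 0.61 (1279 and 1314), with genes as points, which share libraries and are not independent.

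**Figure D1:**
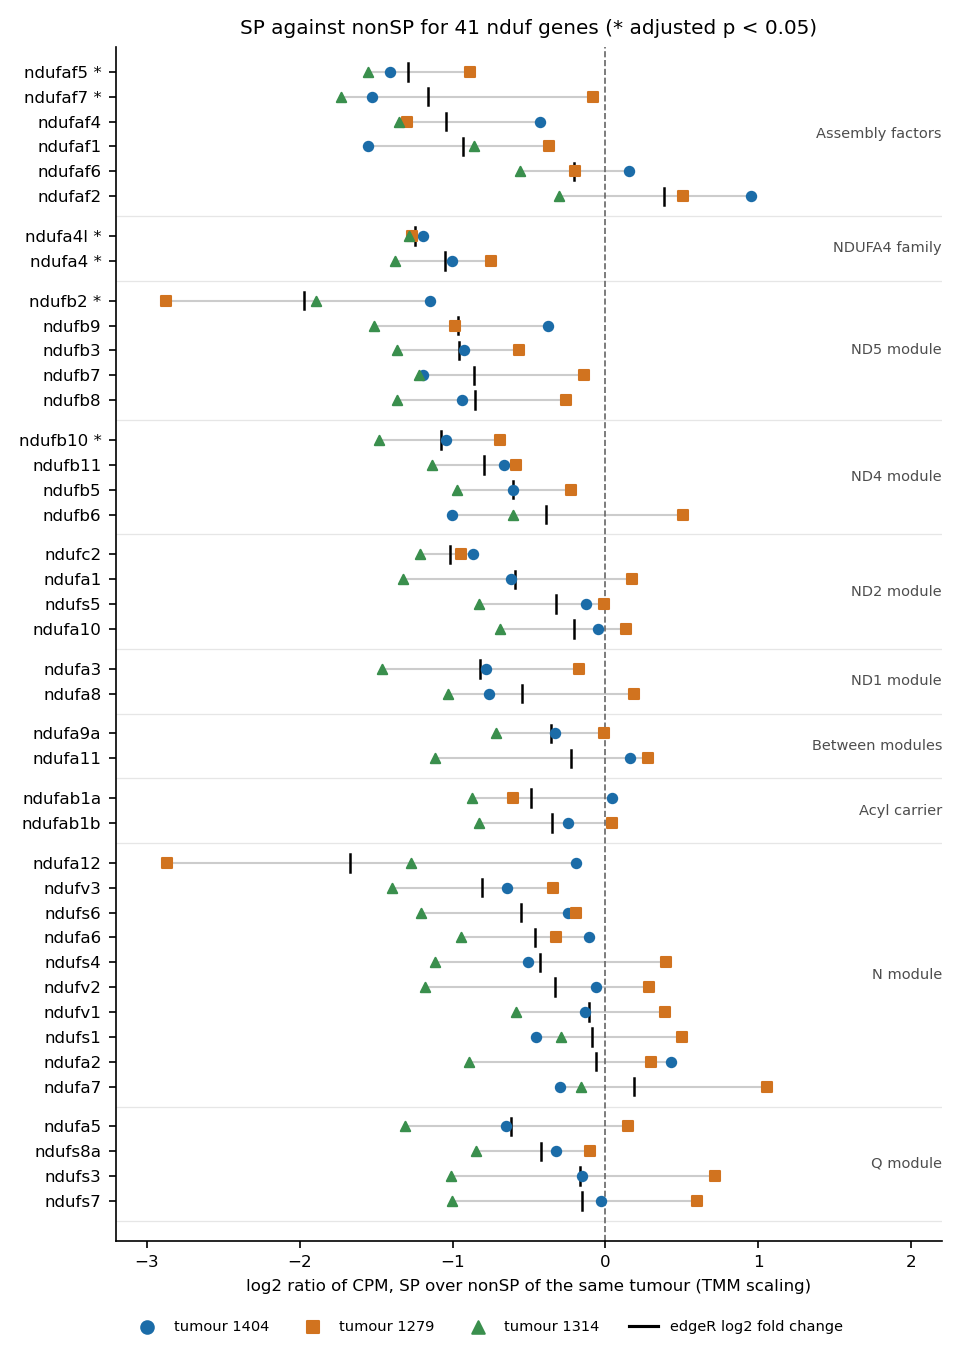
Log2 ratio of CPM in SP over nonSP (x axis, TMM scaling) for 41 of the 42 tested nduf genes, grouped by module. Points are the 3 tumours, black ticks the edgeR log2 fold change, and stars mark the 6 genes at an adjusted p below 0.05, of which 0 were called with library totals. With TMM all genes shown lie left of 0 in tumour 1314, which does not hold with library totals (median -0.012), and most ndufb genes of the ND5 and ND4 modules lie further left than the core genes of the N and Q modules.

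The distal membrane arm, the ND4 and ND5 modules, was represented by 9 ndufb genes. All 9 had a log2 fold change below 0 (median -0.86, range -1.97 to -0.39), while with library totals the median was 0.21 (range -0.90 to 0.68). With TMM, 8 of them were below 0 in every tumour, where 24.0% of all tested genes were. In edgeR with TMM 2 passed the test, where 9.40% of all tested genes were lower, and 0 passed with library totals. ndufb2 stood at 12.8, 1.60 and 1.88 CPM in SP versus 28.3, 12.0 and 7.08 CPM in nonSP. SP was lower in each pair, yet the groups overlapped, since SP of tumour 1404 was above nonSP of the other tumours. It fell by 1.97 ± 0.41 on the log2 scale (± gives the SE here and below, n = 3 pairs; edgeR adjusted p = 0.00174), or 3.91-fold, with log2 ratios of -1.14, -2.87 and -1.89, and its value with library totals was -0.90 (edgeR adjusted p = 0.0693). ndufb2 was the single nduf gene called whichever tumour was left out, with values of -1.51 without 1279 and -2.51 without 1404. ndufb10 stood at 6.49, 6.35 and 22.1 CPM in SP versus 13.4, 10.3 and 61.6 CPM in nonSP. It was lower in SP of each pair, and the groups overlapped because both fractions of tumour 1314 were high. It fell by 1.08 ± 0.36 (edgeR adjusted p = 0.0345), a call that ended without tumour 1279 (-1.25, adjusted p = 0.0882), without tumour 1314 (-0.87, adjusted p = 0.256), with no filter (adjusted p = 0.0536) and with library totals (-0.0067).

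The other ndufb genes missed the threshold. ndufb9 stood at 9.71, 14.7 and 27.1 CPM in SP versus 12.6, 29.2 and 77.5 CPM in nonSP (-0.96 ± 0.37, edgeR adjusted p = 0.0652), and the gap was widest in tumour 1314. ndufb3 stood at 8.64, 8.05 and 15 CPM in SP versus 16.4, 11.9 and 38.6 CPM in nonSP (-0.96 ± 0.36, edgeR adjusted p = 0.0580), lower in SP of each pair. Both passed without tumour 1404 (edgeR adjusted p = 0.00453 for ndufb9 and 0.0359 for ndufb3), in DESeq2 (0.0276 and 0.0229) and in limma voom (0.0304 and 0.0468). Neither passed without tumour 1279 (edgeR adjusted p = 0.228 and 0.116) or without tumour 1314 (0.414 and 0.351). The log2 fold changes of ndufb7, ndufb8 and ndufb11 were -0.86, -0.86 and -0.80, and that of ndufb5 was -0.60. ndufb6 was the exception in direction, with log2 ratios of -1.0, 0.51 and -0.61 on counts of 156, 235 and 374 in SP versus 199, 45 and 270 in nonSP.

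The proximal membrane arm, the ND1 and ND2 modules, had 6 tested genes, of which 0 passed in edgeR, with 2 lower at an unadjusted p below 0.05. Among all tested genes 15.3% were lower at that unadjusted threshold. ndufc2, an accessory subunit of the ND2 module, stood at 5.17, 3.56 and 5.16 CPM in SP versus 9.47, 6.88 and 12.0 CPM in nonSP. All 3 SP libraries were below all 3 nonSP libraries with TMM, but the groups overlapped with library totals. The value of -1.01 ± 0.38 lay just outside the threshold (edgeR adjusted p = 0.0529). It passed in DESeq2 (adjusted p = 0.0177), in limma voom (0.0334) and without tumour 1404 (edgeR adjusted p = 0.0434). It did not pass without tumour 1279 (edgeR adjusted p = 0.175) or without tumour 1314 (0.251). The log2 fold changes of ndufa3 and ndufa8 of the ND1 module were -0.82 and -0.54, and those of ndufa1, ndufs5 and ndufa10 of the ND2 module were -0.59, -0.32 and -0.21.

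With TMM the median of the hydrophilic arm stood closer to 0 than that of the distal membrane arm (-0.86). With library totals it stood farther from 0 (0.74 against 0.21). The N and Q modules had 15 tested genes with a median log2 fold change of -0.33, and 0 were called lower or higher in edgeR, with 1 lower and 0 higher at an unadjusted p below 0.05. With library totals their median was 0.74 and 6 were higher, where 50.8% of all tested genes were. Among them are the 7 tested genes of the conserved core, whose median was -0.15. The accessory genes of the arm ranged from -1.67 to 0.18, and a median of those alone was not taken. The median log2 ratio of the core was -0.13, 0.46 and -0.85 in the 3 tumours with TMM, and 0.69, 1.75 and 0.26 with library totals, above 0 in each. Over all tested genes the medians with library totals were 0.79, 1.49 and 1.05. The core lay below these in tumours 1404 and 1314 and above in 1279.

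ndufv1, the subunit that binds NADH and flavin, stood at 28.6, 31.6 and 47.5 CPM in SP versus 31.3, 24.1 and 71.2 CPM in nonSP (-0.11 ± 0.37, edgeR adjusted p = 0.864). ndufv2, its iron-sulphur partner, stood at 3.34, 3.79 and 9.10 CPM in SP versus 3.48, 3.10 and 20.7 CPM in nonSP (-0.33 ± 0.40, edgeR adjusted p = 0.587). With TMM, SP was the higher fraction of both in tumour 1279 and the lower one in tumour 1314, while with library totals the log2 ratios were 0.69, 1.68 and 0.52 for ndufv1 and 0.75, 1.56 and -0.079 for ndufv2. ndufs1, the large iron-sulphur subunit, stood at 9.58, 21.8 and 35.2 CPM in SP versus 13.2, 15.4 and 43.2 CPM in nonSP (-0.09 ± 0.37, edgeR adjusted p = 0.891). SP was higher in tumour 1279 alone with TMM and in each tumour with library totals (log2 ratios of 0.36, 1.79 and 0.81). For all 3 genes, the medians over all tested genes with library totals were 0.79, 1.49 and 1.05.

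ndufs3, a core subunit of the Q module, stood at 6.42, 5.86 and 17.4 CPM in SP versus 7.14, 3.55 and 35.1 CPM in nonSP (-0.17 ± 0.40, edgeR adjusted p = 0.795). ndufs7, which carries the last iron-sulphur cluster before ubiquinone, stood at 6.86, 12.2 and 20.3 CPM in SP versus 7, 8.07 and 40.7 CPM in nonSP (-0.15 ± 0.39, edgeR adjusted p = 0.815). Both had SP above nonSP in tumour 1279 and below it in tumour 1314 with TMM, while with library totals SP was above nonSP in each tumour, at log2 ratios in tumour 1314 of 0.092 for ndufs3 and 0.099 for ndufs7. ndufs8a, another iron-sulphur subunit, stood at 24.0, 21.6 and 41.1 CPM in SP versus 30.1, 23.1 and 74.0 CPM in nonSP (-0.42 ± 0.37, edgeR adjusted p = 0.429), lower in SP of each pair with TMM and higher in each with library totals (0.50, 1.19 and 0.26). With library totals the medians over all tested genes were 0.79, 1.49 and 1.05, above ndufs8a in each tumour and above ndufs3 and ndufs7 in tumour 1314.

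The accessory genes of this arm were spread more widely. ndufa7 of the N module was at 0.682, 2.39 and 1.79 CPM in SP versus 0.846, 1.13 and 2.01 CPM in nonSP (0.18 ± 0.49, edgeR adjusted p = 0.825). SP was its higher fraction in tumour 1279 alone with TMM and in each tumour with library totals (log2 ratios of 0.48, 2.31 and 0.93). With library totals its value was 1.25 (edgeR adjusted p = 0.0455), where 50.8% of all tested genes were called higher. The log2 fold changes were -0.06 for ndufa2, -0.43 for ndufs4, -0.46 for ndufa6, -0.55 for ndufs6, -0.62 for ndufa5 and -0.81 for ndufv3. ndufa12 had 8, 3 and 12 counts in SP versus 6, 10 and 16 in nonSP, so that its value of -1.67 ± 0.82 (edgeR adjusted p = 0.141) rests on few reads. Between the modules, ndufa9a and ndufa11 were at -0.35 and -0.22, and the mitochondrial acyl carrier protein genes ndufab1a and ndufab1b at -0.49 and -0.35 on the log2 scale.

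**Figure D2:**
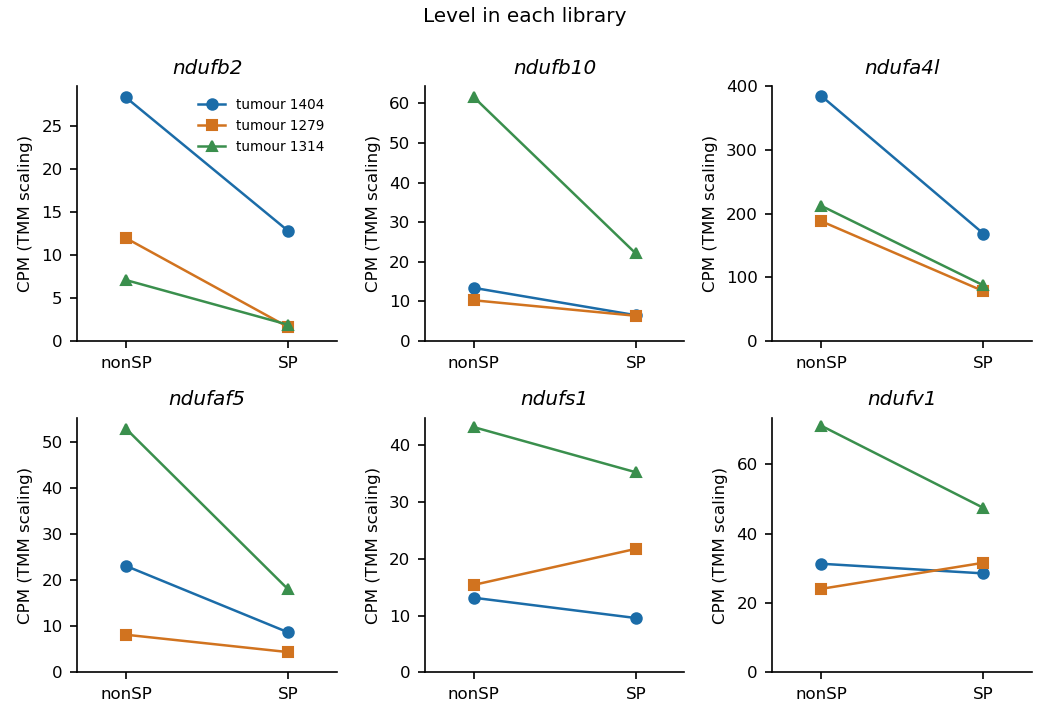
CPM in each library (y axis, TMM scaling, starting at 0) for 4 nduf genes that fell in SP (ndufb2, ndufb10, ndufa4l, ndufaf5) and 2 core subunit genes (ndufs1, ndufv1). Lines join the fractions of a tumour. With TMM scaling SP is lower in each tumour for the first 4 genes, of which 0 were called with library totals, while ndufs1 and ndufv1 are higher in SP of tumour 1279 and lower in SP of the other two with TMM, and higher in SP of each tumour with library totals. The median log2 ratios of all tested genes with library totals are 0.79, 1.49 and 1.05.

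The ndufb genes and the core subunit genes thus stood apart within the same libraries, a comparison in which the scaling of the libraries cancels. The median log2 ratio of the 9 ndufb genes lay below that of the 7 core genes in each tumour, with differences of -0.80, -1.03 and -0.51, and the medians of the fold changes differed by -0.71 with TMM and with library totals. All ndufb genes but ndufb6 had a fold change below the lowest core gene, ndufs8a. Against all 15 tested genes of the N and Q modules the differences were -0.74, -0.86 and -0.36. There 1 of the 9 ndufb genes lay below the lowest gene, ndufa12. Since all ndufb genes are accessory, membrane arm position and accessory status cannot be told apart in the comparison with the core. The 15 genes include the 7 core genes, and the ndufb genes were not set against the accessory genes of the N and Q modules alone. Summed over genes, the count ratio of ndufb to core genes was 1.1, 0.761 and 0.772 in SP versus 1.97, 1.43 and 1.16 in nonSP. The ratio was lower in SP of every pair, and the SP libraries lay below all nonSP libraries. These are descriptions of gene groups over 3 pairs, with no test of the difference.

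The ndufa4 family had 2 tested genes, and both fell with TMM, where 9.40% of all tested genes fell. ndufa4l, listed by RefSeq as ndufa4a, stood at 169, 78.3 and 87.4 CPM in SP versus 385, 188 and 213 CPM in nonSP. All SP libraries lay below all nonSP libraries with TMM, but the groups overlapped with library totals. ndufa4l fell by 1.25 ± 0.36 (edgeR adjusted p = 0.0169), with log2 ratios of -1.19, -1.27 and -1.28, and its value with library totals was -0.17. ndufa4, listed by RefSeq as ndufa4b, stood at 15.7, 8.80 and 15.8 CPM in SP versus 31.6, 14.8 and 41.1 CPM in nonSP. It was lower in SP of each pair, with overlap between the groups through nonSP of tumour 1279. It fell by 1.05 ± 0.36 (edgeR adjusted p = 0.0376), with log2 ratios of -1.01, -0.75 and -1.38, and its value with library totals was 0.023. Both calls ended without tumour 1279 (ndufa4l -1.22, adjusted p = 0.104, and ndufa4 -1.18, adjusted p = 0.105) and without tumour 1314 (-1.22, adjusted p = 0.127, and -0.88, adjusted p = 0.256), and that of ndufa4 also with no filter (-0.98, adjusted p = 0.0609). Related copies can share reads, and how the counting treated such reads is unstated in the labels.

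Assembly factor genes had a median log2 fold change of -0.99 over 6 tested genes, against -0.51 over 36 subunit genes (0.089 and 0.56 with library totals). In edgeR with TMM 2 of the 6 fell, where 9.40% of all tested genes did. With library totals 0 were lower and 1 higher, where 50.8% of all tested genes were higher. ndufaf5, which hydroxylates ndufs7 during assembly of the Q module, stood at 8.69, 4.41 and 18.0 CPM in SP versus 23.1, 8.18 and 52.9 CPM in nonSP. It was lower in SP of each pair, with overlap between the groups. It fell by 1.29 ± 0.36 (edgeR adjusted p = 0.0134), or 2.45-fold, a call that ended without tumour 1314 (-1.15, adjusted p = 0.115) and with library totals (-0.22). ndufaf7, a protein methyltransferase, stood at 4.95, 2.45 and 10.1 CPM in SP versus 14.3, 2.60 and 33.6 CPM in nonSP. It fell by 1.16 ± 0.41 (edgeR adjusted p = 0.0412), with log2 ratios of -1.52, -0.081 and -1.73, so tumour 1279 had nearly equal fractions. The call of ndufaf7 ended without tumour 1404 (-1.07, adjusted p = 0.0642), without tumour 1314 (-0.84, adjusted p = 0.326) and with library totals (-0.097).

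The other assembly factor genes did not pass. ndufaf1, of the complex that builds the ND2 module, stood at 5.38, 9.36 and 18.7 CPM in SP versus 15.8, 12.1 and 34.0 CPM in nonSP (-0.93 ± 0.37, edgeR adjusted p = 0.0723), lower in SP of each pair. ndufaf4, which acts on the Q module, stood at 1.32, 2.53 and 2.34 CPM in SP versus 1.79, 6.26 and 6 CPM in nonSP (-1.05 ± 0.43, edgeR adjusted p = 0.0768), also lower in each pair. Both passed in DESeq2 (adjusted p = 0.0352 for ndufaf1 and 0.0343 for ndufaf4), and ndufaf4 passed in limma voom (0.0301) and without tumour 1404 (edgeR adjusted p = 0.0186). Neither passed without tumour 1279 (edgeR adjusted p = 0.103 for ndufaf1 and 0.326 for ndufaf4) or without tumour 1314 (0.211 and 0.347). ndufaf6 stood at 6.23, 2.61 and 5.03 CPM in SP versus 5.59, 2.99 and 7.43 CPM in nonSP (-0.20 ± 0.39, edgeR adjusted p = 0.749), with tumours on both sides of 0. ndufaf2, an assembly factor related in sequence to ndufa12, had the highest fold change of all tested nduf genes. It stood at 3.22, 1.62 and 2.21 CPM in SP versus 1.64, 1.13 and 2.74 CPM in nonSP (0.39 ± 0.46, edgeR adjusted p = 0.585), higher in SP of tumours 1404 and 1279 with TMM and of each tumour with library totals (1.75, 1.75 and 0.79). All tested genes had library-total medians of 0.79, 1.49 and 1.05. The median log2 ratio of assembly factors minus that of subunits was -0.50, -0.23 and 0.010 in the 3 tumours, so tumour 1314 showed almost no gap. Their summed counts relative to those of the subunits (without the ndufa4 family) were 0.0829, 0.0640 and 0.0941 in SP versus 0.120, 0.0876 and 0.111 in nonSP, lower in SP of each pair.

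Of complex I assembly factor genes under other names, 8 were listed and tested. In edgeR 3 fell and 0 rose, with 1 higher at an unadjusted p below 0.05, where 9.40% of all tested genes fell. With library totals 0 were lower and 3 higher, where 50.8% of all tested genes were higher. nubpl, which delivers iron-sulphur clusters, stood at 2.48, 2.22 and 5.20 CPM in SP versus 14.0, 5.19 and 10.3 CPM in nonSP (-1.56 ± 0.41, edgeR adjusted p = 0.00919). tmem126a, which acts on the membrane arm, was at 8.72, 3.95 and 8.54 CPM in SP versus 23.1, 7.95 and 26.0 CPM in nonSP (-1.35 ± 0.37, edgeR adjusted p = 0.0111, and 0.0949 without tumour 1314). timmdc1, another membrane arm factor, was at 3.88, 4.05 and 17.2 CPM in SP versus 8.41, 6.77 and 42.3 CPM in nonSP (-1.06 ± 0.36, edgeR adjusted p = 0.0385, with 0.0990 without tumour 1279, 0.247 without tumour 1314, 0.0622 with no filter and 0.0556 with thinned libraries). All 3 were lower in SP of each pair. foxred1, an oxidoreductase needed for assembly, stood on the other side of 0, at 1.25 ± 0.53 (edgeR adjusted p = 0.0887), with log2 ratios of 2.74, 0.77 and 0.33. The remaining 4, ecsit, tmem70, tmem186 and acad9, were between -0.18 and 0.62, and the median of the list was -0.14.

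Which direction the genes took depended on the scaling. In the order of the tumours, TMM factors of 1.21, 1.44 and 1.76 in SP stood against 0.683, 0.587 and 0.817 in nonSP, and cytosolic ribosomal protein genes took 34.6% to 38.1% of the counts in SP and 50.5% to 55.5% in nonSP. With library totals in place of TMM factors, the median of all tested genes moved from 0.09 to 1.15, and 1.76% of all tested genes were called lower and 50.8% higher. Among the 7 nduf genes then called higher, 4 are core subunits and 0 are ndufb genes, and ndufs1, ndufv1, ndufa2 and ndufaf2 are examples. Relative to the median of all tested genes, the subunits were at -0.60 with TMM and with library totals, the assembly factors at -1.07 and -1.06, the ndufb genes at -0.95 under both, and the core at -0.24 under both. As shares of all counts, the 40 subunit genes took 0.0655%, 0.0641% and 0.123% in SP versus 0.0638%, 0.0342% and 0.121% in nonSP. With the ndufa4 family included, the shares were close in tumours 1404 and 1314 and higher in SP of tumour 1279. Without that family, the 37 other subunit genes took 0.0433% in SP versus 0.0354% in nonSP of tumour 1404. In tumour 1279 they took 0.0516% in SP versus 0.0222% in nonSP. Their share was higher in SP of each tumour, by the least in tumour 1314.

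**Figure D3:**
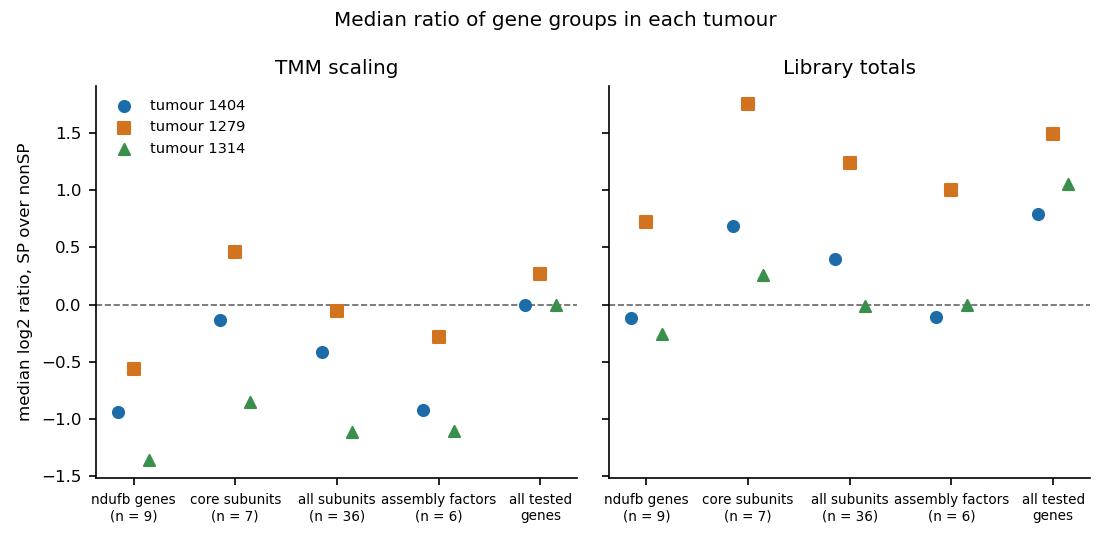
Median log2 ratio of SP over nonSP (y axis) of 4 groups of nduf genes and of all tested genes, with TMM scaling (left) and library totals (right). Points are the 3 tumours. The ndufb genes lie below the core subunits in each tumour under both scalings, and all groups lie higher with library totals.

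The share of all genes called is the background for the other counts of nduf genes. RLE scaling called 8 nduf genes lower (10.5% of all genes lower, 10.8% higher), upper-quartile scaling 9 (10.4% and 11.6%), and TMM without ribosomal protein and mitochondrial genes 9 (10.2% and 12.4%). With no filter 4 were lower (5.41% and 10.1%), with the stricter filter 8 of 33 (14.8% and 17.2%), and with libraries thinned to equal depth 6 (9.60% and 12.5%). Without tumour 1404, 9 were lower (10.6% and 7.85%), without 1279, 3 (667 of 16672 genes and 8.37%), and without 1314, 1 (4.34% lower and 1141 of 16296 genes higher). With no tumour block edgeR called 0 genes of any kind at an adjusted p below 0.05, and the adjusted p of the 6 nduf genes was 0.652 to 0.712, while DESeq2 without the block called 0 nduf genes (0.184% and 0.114% of all genes).

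Complex I was set beside other mitochondrial genes measured in the same libraries. Of 51 nuclear genes of complexes II to V, 22 fell and 0 rose in edgeR (43.1% lower, median -0.95, with 0 higher at an unadjusted p below 0.05), while with library totals 0 were lower and 7 higher. Of 71 mitochondrial ribosomal protein genes, 13 fell and 0 rose (18.3% lower, median -0.53, with 2 higher at an unadjusted p below 0.05). With library totals 0 of the 71 were lower and 14 higher. Among all tested genes 9.40% were lower and 13.0% higher with TMM, and 1.76% and 50.8% with library totals. Per tumour, the median log2 ratio was -0.79, -0.62 and -1.25 for complexes II to V and -0.49, -0.20 and -0.87 for the mitochondrial ribosome, against -0.35, -0.0100 and -1.07 for the 34 tested complex I subunit genes without the ndufa4 family. Summed counts of these subunits relative to those of complexes II to V were 0.107, 0.134 and 0.201 in SP versus 0.101, 0.0822 and 0.175 in nonSP. The ratio was higher in SP of each pair, by 0.075, 0.70 and 0.20 on the log2 scale. Relative to mitochondrial ribosomal protein genes, the same differences were 0.41, 0.43 and -0.055, mixed in direction. These differences between gene groups were not tested.

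**Figure D4:**
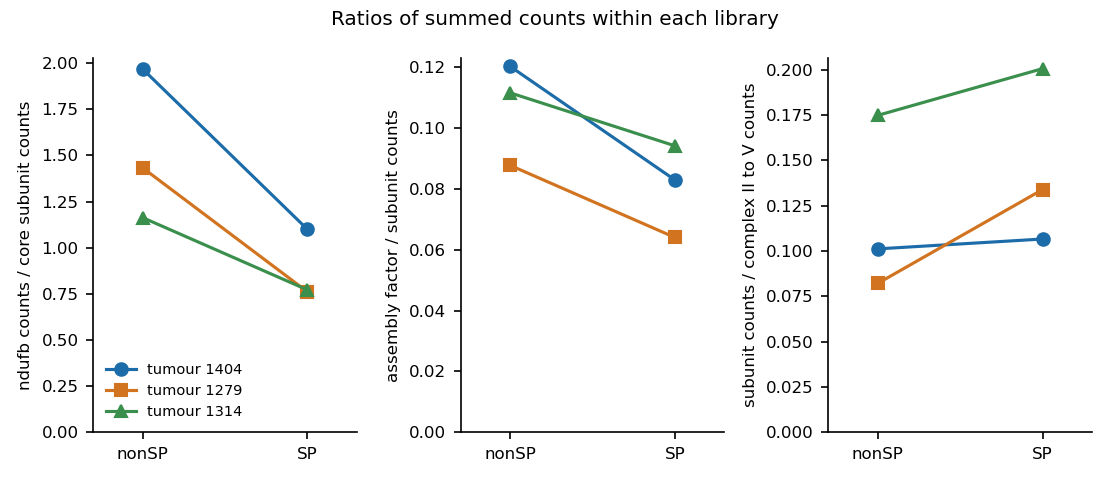
Ratios of summed counts within each library (y axes, starting at 0), with lines that join the fractions of a tumour: ndufb to core subunit genes, assembly factors to subunits, and subunits to nuclear genes of complexes II to V (the latter pair without the ndufa4 family). The first pair of ratios is lower and the third is higher in SP of each tumour.

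The subunits of complex I encoded in mitochondrial DNA did not follow the nuclear genes by tumour. The median log2 ratio of the 7 mt-nd genes was -0.65, -1.39 and 0.57 with TMM, and 0.17, -0.10 and 1.67 with library totals. Of the 7 genes, mt-nd4 fell with TMM (-1.15 ± 0.31, edgeR adjusted p = 0.00990, and 0.0877 without tumour 1279), where 9.40% of all tested genes fell. With library totals 0 of the 7 were lower and 3 higher, where 50.8% of all tested genes were higher. With TMM, tumour 1314, where nuclear subunits had their lowest median ratio, had 2 of 7 mt-nd genes below 0, and tumour 1279 had all 7 below 0. Summed counts of nuclear subunits (without the ndufa4 family) relative to mt-nd genes were 0.0601, 0.233 and 0.248 in SP versus 0.0477, 0.0809 and 0.642 in nonSP.

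Of 15 regulators of mitochondrial biogenesis tested, 1 rose and 1 fell (6.67% each, against 13.0% of all tested genes higher and 9.40% lower), while with library totals 9 were higher, where 50.8% of all genes were, and 0 lower. ppargc1b, a coactivator that induces respiratory genes in mammals, stood at 130.0, 55.6 and 41.3 CPM in SP versus 10.6, 22.2 and 10 CPM in nonSP, and all SP libraries lay above all nonSP libraries. It rose by 2.31 ± 0.45 (edgeR adjusted p = 0.000887), and by 3.39 with library totals. tfb1m, a mitochondrial ribosomal RNA methyltransferase, stood at 1.02, 1.66 and 2.68 CPM in SP versus 2.11, 4.23 and 12.6 CPM in nonSP (-1.55 ± 0.43, edgeR adjusted p = 0.0118, with 0.0555 without tumour 1279 and 0.191 without tumour 1314). gabpb1 and gabpb2a, genes of a factor that binds promoters of respiratory genes in mammals, were at -1.29 and 0.87 on the log2 scale (edgeR adjusted p = 0.0656 and 0.0862). nrf1, whose mammalian counterpart binds promoters of nuclear respiratory genes, was at 0.76 ± 0.39 (edgeR adjusted p = 0.167), and tfam, which packages mitochondrial DNA, at -0.26 ± 0.38 (edgeR adjusted p = 0.662).

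Levels of nduf genes also differed between tumours. For 39 of the 42 genes the range of the tumour means of log2 CPM was wider than the size of the log2 fold change between fractions. The median range was 1.35 and the median size 0.55. These measures are unlike, since the range spans the highest and lowest of 3 means and the fold change is an average over pairs. Tumour 1314 had the highest mean for 37 genes, 1404 for 4 and 1279 for 1. The same counts over all tested genes were not made, so whether these traits are particular to nduf genes was not tested. ndufaf7 had the widest range, 2.85, with means of 3.08, 1.36 and 4.21. ndufb2 went the other way from most genes, with means of 4.25, 2.15 and 1.88, highest in tumour 1404. ndufs4 and ndufs3 spanned 2.70 and 2.43 with tumour 1314 highest. Each mean is over the fractions of 1 tumour, so no test was made.

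The 4 nduf genes not tested had too few counts. ndufa13, a membrane arm subunit, was listed at 0 in all 6 libraries, where a count of 0 allows up to 3 counts, or 0.0481 to 0.0993 CPM of the library totals. For any row at 0 throughout, little RNA and reads that the counting did not assign to the row cannot be told apart. ndufs8b and ndufa9b, second copies of subunit genes, had 2 to 12 and 3 to 7 counts, and RefSeq (assembly GRCz12tu) lists ndufa9b as a pseudogene. ndufa4l2a had 1 count in all. Another 4 rows carry complex I names in capitals and lie outside the rule. NDUFB1, of the ND4 module, stood at 8.79, 10.7 and 8.93 CPM in SP versus 19.5, 26.4 and 27.2 CPM in nonSP. All SP libraries lay below all nonSP libraries with TMM, but the groups overlapped with library totals. NDUFB1 fell by 1.36 ± 0.36 (edgeR adjusted p = 0.00928, with 0.0633 without tumour 1279 and 0.0912 without tumour 1314), and its value with library totals was -0.28. NDUFC1, of the ND2 module, was at -0.58 ± 0.42 (edgeR adjusted p = 0.328). NDUFAF3 was listed at 0 throughout, and a row for NDUFA4L2 had at most 6 counts in a library.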

How the data were processed

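The authors deposited raw counts per gene symbol for each library. The submitters' processing notes name STAR 2.5.1b together with Cufflinks 2.2.1, DESeq 1.30.0, edgeR 3.20.7 and featureCounts 1.28.1, and build GRCz10. The role of each, the annotation and the handling of strand were not stated there. Overlapping or antisense genes therefore cannot be separated, and without gene lengths levels are compared between libraries, not genes. All 46 symbols matched RefSeq (GRCz12tu), 44 by symbol and 2 by synonym.

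The deposited counts were fitted with edgeR 4.0.16 under R 4.3.3 (filterByExpr by group with minimum count 10 and minimum total 15, TMM, robust glmQLFit, glmQLFTest). Tumour number was a block, because both libraries of a number come from the same tumour by the design text. Deviations from group means correlated at 0.753, 0.839 and 0.818 within tumours 1404, 1279 and 1314. Log2 ratios per tumour used a prior count of 2. The SE is the size of the fold change over the square root of F, with prior degrees of freedom of 23.2 shared across genes. p-values concern these 3 pairs. On simulated counts for this comparison, 12.5% of 2-fold and 86.5% of 4-fold changes were recovered among 14817 genes. There 96 genes were changed 2-fold and 104 genes 4-fold, all drawn from genes above a minimum level. The simulated fit made 104 calls, against 1483 lower and 2047 higher in the data. Its adjusted threshold was therefore stricter, and these rates need not hold for the data. The limit at a count of 0 covers counting error only.

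The members and lists were chosen with earlier results of these data known. Values in every library are given for the 10 nduf genes with the lowest p, the core subunits, all ndufaf genes and the 3 with the highest fold change, and for some of the 4 genes with the lowest p in each other list. 1 gene within this rule is not reported here. ndufa12, ndufb6, NDUFB1, nrf1, tfam and the markers named were picked after their values were seen. Alternatives were DESeq2 1.42.0, limma 3.58.1 voom with sample quality weights, other scalings and filters (the stricter one asks 10 counts in 3 libraries and an average log2 CPM of 3), thinning, each tumour left out, no block and an adjusted p of 0.1. DESeq2 without the block was added after seeing the data.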

Additional observations from a re-analysis of the deposited data

How the results depend on the processing

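The count of 6 nduf genes lower in SP became 13 with DESeq2, 10 with limma voom, 12 at an adjusted p of 0.1, 0 with library totals, 0 with no replicate block and 0 with DESeq2 and no block. It was 1 to 9 with a tumour left out (9 without 1404, 3 without 1279 and 1 without 1314), and 4 to 9 under the other scalings and filters and with thinning. For the 12 at an adjusted p of 0.1, the share of all tested genes at that threshold was not counted. The count of 0 higher became 7 with library totals and was 0 under the other alternatives, 0 to 0 with a tumour left out. Both fits without the tumour block lost every nduf call. The median of the subunits ranged from -0.79 to -0.43 under all alternatives that keep the 3 tumours except library totals (0.56), and from -0.78 to -0.24 with a tumour left out. That of the assembly factors ranged from -1.17 to -0.91, again except library totals (0.089), and from -1.04 to -0.86 with a tumour left out. With the stricter filter 8 of 33 nduf genes were lower, where 14.8% of all genes were. The counts over all genes also moved by over 1.5 times, from 1483 lower and 2047 higher to 277 and 8015 with library totals, 667 and 1396 without 1279, 708 and 1141 without 1314, 1685 and 1247 without 1404, 904 and 1048 with the stricter filter, 0 and 0 with no block, and 29 and 18 in DESeq2 with no block. The share of higher calls, 58.0%, was 96.7%, 67.7%, 61.7% and 42.5% in the first 4 and 38.3% in the last.

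With library totals the values changed sign for ndufa4 (0.023), ndufc2 (0.057), ndufb3 (0.12), ndufb9 (0.11), ndufaf1 (0.15), ndufaf4 (0.033), ndufaf6 (0.87), ndufs8a (0.65), ndufs7 (0.92), ndufv1 (0.96), ndufv2 (0.74), ndufs1 (0.98), ndufs3 (0.89) and timmdc1 (0.016). With a tumour left out the values ranged over -0.50 to 0.29 for ndufs7, -0.34 to 0.13 for ndufv1, -0.61 to 0.11 for ndufv2, -0.36 to 0.023 for ndufs1, -0.57 to 0.28 for ndufs3, -0.034 to 0.76 for ndufaf2 and -0.22 to 0.38 for ndufa7. The cause was not tested.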
